A study of Mus musculus with 12 samples.

Results

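Collagens, the enzymes that modify and cut them, the inhibitors of those enzymes and other proteins of the extracellular matrix were followed in mouse mammary gland. The genes are a list of 59 matrix genes, sorted by role, and each was found through the probe sets (groups of short probes on an array that together measure 1 transcript) annotated to its symbol. Of the 59 genes, 54 had at least 1 probe set annotated to them alone, 113 probe sets in all out of 45101 on the array. Loxl2, Mmp15, Adamts2, Fbn1 and Spp1 were not analysed here. A probe set was tested if its signal lay above the array's median on at least 3 of the 12 arrays. By that filter 96 of the 113 probe sets and 52 of the 54 genes were tested, among 23709 probe sets and 12004 genes of the whole array, and P4ha3 and Lama1 were too low.

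All mice were female BALB/c, 10 weeks old and ovariectomized, and were either wild type or null for the progesterone receptor. The labels do not describe the null allele or how it was made. Every mouse was given 17β-estradiol (100 ng) under the skin for 24 h, followed by 17β-estradiol together with progesterone (2.5 ug) for 8 h or 24 h. This gave 4 groups, wild type and null at each time, with 3 Affymetrix arrays per group and a pool of 3 mice per array. No group went without progesterone, so a response to the hormone and a lasting difference between the genotypes cannot be told apart. Time of progesterone, total time of 17β-estradiol and possibly the clock hour of collection changed together between 8 h and 24 h.

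The extracellular matrix of the mammary gland surrounds the ducts and the fat cells. Fibrillar collagens give the connective tissue its strength, while type IV collagen, laminins and nidogen form the basement membrane under the epithelium and around vessels, muscle fibres and adipocytes. Newly made collagen chains are hydroxylated on proline and lysine in the endoplasmic reticulum, wound into a triple helix, secreted and then cross-linked by lysyl oxidases. Matrix metalloproteases and Adamts proteases cut the finished matrix, and Timp proteins inhibit them. In the adult gland this matrix is remodelled as ducts branch and alveoli form and regress.

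Values are signals on a log2 scale, so that a difference of 1 is a doubling. Differences, standard errors (SE) and p-values are from limma over all 12 arrays, and a probe set was called when its Benjamini-Hochberg adjusted p over all 23709 tested probe sets was below 0.05. A gene with several probe sets is represented by the one with the highest mean signal over the 12 arrays. Only differences of the same probe set between groups were compared, since signals of different probe sets are not on a common scale. Pgr, the targeted gene, had 1 probe set 2.08-fold higher in wild type at 8 h (adjusted p = 0.012) and 1.28-fold apart at 24 h (adjusted p = 0.45), and another that was higher in null glands at both times (3.92-fold and 4.28-fold), so it checks the genotype labels only in part. Array medians lay between 5.84 and 5.91, and within-group correlations over all tested probe sets between 0.965 and 0.993. In this whole tissue, fewer cells of a type and less RNA per cell cannot be told apart.

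Genotype at 8 h was compared first. At this time 4 of the 96 tested matrix probe sets were called, all 4 higher in wild type (4.17%), against 3.07% of all tested probe sets called (1.54% higher and 1.54% lower). They belong to Col5a3, a chain of the minor fibrillar type V collagen, Col15a1, a collagen of the basement membrane zone, Plod1, a lysyl hydroxylase, and Nid1, the linker protein of laminin and type IV collagen. At an unadjusted p below 0.05, 15 of the 96 probe sets passed (15.6%), the same share as of all tested probe sets (15.6%). With weights for array quality 22 of the 96 were called, 6 higher and 16 lower in wild type. The 16 were probe sets of Bgn, Timp3, Timp4, Tnc, Thbs1, Fbln1, Lox, Col4a1, Col12a1 and Col18a1. The same weights called 4017 of all 23709 tested probe sets. Limma called 0 without 8 h wild type pool 1 or pool 2, 1 without 8 h null pool 1 or 3, and 2 without 8 h wild type pool 3, 8 h null pool 2 or 24 h null pool 2. Wild type and null arrays did not overlap for 18 of the 96 probe sets (18.8%), against 24.4% of all tested probe sets. The median difference over the 52 genes was -0.02, against 0.01 over all genes. Below 0 lay 31 of the 52 genes (59.6%, against 47.4% of all genes) and 59 of the 96 probe sets (61.5%, against 45.9%).

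To show the regions from which these 4 genes are transcribed, the 250 bases before the annotated start of each are given here, 5′ to 3′ on the gene's own strand, from RefSeq on build GRCm38.p6. Capitals mark matches, on either strand, to any of 5 motifs that were searched: TATAAA (the TATA box), TGACTCA (AP-1), ACGTG (the core of the hypoxia response element), GGGCGG (Sp1) and TGTTCT (a half-site shared by the progesterone and glucocorticoid receptors).
Col5a3, chr9:20815068-20815317, minus strand: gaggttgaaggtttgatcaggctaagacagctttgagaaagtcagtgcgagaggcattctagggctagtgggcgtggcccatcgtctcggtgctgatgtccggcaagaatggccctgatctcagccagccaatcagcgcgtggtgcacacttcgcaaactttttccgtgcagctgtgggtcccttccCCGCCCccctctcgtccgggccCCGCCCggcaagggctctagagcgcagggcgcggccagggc
Col15a1, chr4:47207762-47208011, plus strand: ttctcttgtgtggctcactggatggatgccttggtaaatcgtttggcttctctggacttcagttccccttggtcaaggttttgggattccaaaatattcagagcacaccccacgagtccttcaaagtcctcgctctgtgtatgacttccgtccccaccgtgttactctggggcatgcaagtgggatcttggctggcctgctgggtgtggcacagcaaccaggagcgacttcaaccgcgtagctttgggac
Plod1, chr4:147936777-147937026, minus strand: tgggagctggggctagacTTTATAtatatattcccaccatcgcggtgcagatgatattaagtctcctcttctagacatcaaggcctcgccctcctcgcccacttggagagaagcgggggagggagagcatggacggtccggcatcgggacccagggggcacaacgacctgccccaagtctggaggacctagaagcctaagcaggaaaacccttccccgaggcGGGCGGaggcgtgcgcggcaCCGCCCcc
Nid1, chr13:13437352-13437601, plus strand: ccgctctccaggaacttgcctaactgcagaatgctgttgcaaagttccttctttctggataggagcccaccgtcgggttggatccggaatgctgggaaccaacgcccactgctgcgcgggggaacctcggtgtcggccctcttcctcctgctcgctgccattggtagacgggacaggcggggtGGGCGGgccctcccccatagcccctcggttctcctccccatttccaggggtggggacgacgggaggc

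GGGCGG occurred in the Col5a3 window at 63 and 41 bases before the start, in the Plod1 window at 28 and 8, and in the Nid1 window at 67. Plod1 also held TATAAA at 232 bases before the start, far from the usual place of a TATA box. The Col15a1 window held none of the 5 motifs, and none of the 4 windows held TGTTCT. Among the 32851 promoters of the table, 32.7% held GGGCGG in the same window, 12.4% TATAAA, 4.46% TGACTCA, 16.6% ACGTG and 16.1% TGTTCT. The table had 47 promoters of 39 of the 59 matrix genes, and 27 of the 47 held GGGCGG, 9 TATAAA, 2 TGACTCA, 9 ACGTG and 6 TGTTCT. A match is only a description of the letters.

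Among the fibrillar collagens, Col5a3 alone was called at 8 h, and its 5 partners in this role were not. Col5a3 signal was 11.68, 11.81 and 11.61 in the wild type pools at 8 h, against 10.66, 11.15 and 10.98 in the null pools. Every wild type pool thus lay above every null pool, by 1.70-fold on average (log2 difference 0.77, SE 0.15, adjusted p = 0.015). Leaving out a pool (12 such leave-one-out fits were made) ended this call for 8 h wild type pool 1 (adjusted p = 0.062) or pool 2 (adjusted p = 0.073). At 24 h the pools overlapped, at 11.25, 11.15 and 11.64 in wild type and 11.20, 11.43 and 11.12 in null glands (difference 0.10, adjusted p = 0.83). Between the times Col5a3 lay 0.35 lower in wild type (adjusted p = 0.19) and 0.32 higher in null glands (adjusted p = 0.24), and the change of the genotype difference was -0.67 (unadjusted p = 0.0075, adjusted p = 0.47). Its other probe set was too low to be tested. Col5a3 lies on chromosome 9, as do Pgr and the members Mmp3, Loxl1, Col12a1 and Plod2. Whether that had a part in the values of these members was not tested.

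The main chains of the interstitial fibres showed small genotype differences. Col1a1 and Col1a2, the 2 chains of type I collagen, differed by 0.10 (95% interval -0.57 to 0.78) and -0.03 (-0.42 to 0.35) at 8 h. Col3a1, the type III collagen chain, differed by 0.05 (-0.21 to 0.30), and Col5a1 and Col5a2, the other type V chains, by 0.03 and 0.07. None was called, and the interval of Col1a1 is too wide to call the genotypes alike. At 24 h the 6 fibrillar genes differed by -0.11 (Col1a1) to 0.10 (Col5a3), and none was called.

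Among the 9 collagens of basement membrane, microfibrils and other assemblies, Col15a1 was called at 8 h. Its signals were 9.32, 9.41 and 9.15 in wild type and 8.94, 8.83 and 8.97 in null pools, with no overlap. The difference was 1.30-fold (log2 0.38, SE 0.09, adjusted p = 0.045). At 24 h Col15a1 signals were 9.36, 9.29 and 9.53 against 9.17, 9.25 and 9.12. Wild type pools again all lay above null pools, but by 0.21, which was not called (adjusted p = 0.33). The 8 h call was kept in 3 of 12 leave-one-out fits. Without 8 h wild type pool 1 or 2 or 8 h null pool 2 the adjusted p was 0.17, 0.18 and 0.19, and without 8 h null pool 1 or 3, 24 h wild type pool 1 or any 24 h null pool it was 0.057 to 0.088. Of 11 other settings 5 kept it (adjusted p 0.0019 to 0.11).

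Type IV collagen, the network of the basement membrane, lay slightly lower in wild type at 8 h, by 0.16 for Col4a1 and 0.13 for Col4a2 (adjusted p = 0.67 and 0.65). These 2 genes are neighbours on chromosome 8, start 21 bases apart on opposite strands, and their signals followed each other over the 12 arrays (r = 0.87, a description only). Col6a1 and Col6a2, neighbours on chromosome 10 that encode chains of the type VI collagen microfibrils, had r = 0.94 over the arrays and lay 0.18 and 0.15 higher in wild type at 8 h (adjusted p = 0.67 and 0.78). Col12a1, a collagen on the surface of fibrils, had signals of 6.37, 6.18 and 6.66 in wild type and 6.70, 7.70 and 7.06 in null pools at 8 h. The groups did not overlap, yet the difference of -0.75 was not called (SE 0.27, adjusted p = 0.20). Col18a1, the basement membrane collagen related to Col15a1, lay 0.30 lower in wild type at 8 h and 0.23 lower at 24 h (adjusted p = 0.24 and 0.43), opposite in sign to Col15a1. Col6a3 and Col14a1 differed by -0.07 and 0.06.

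**Figure D1:**
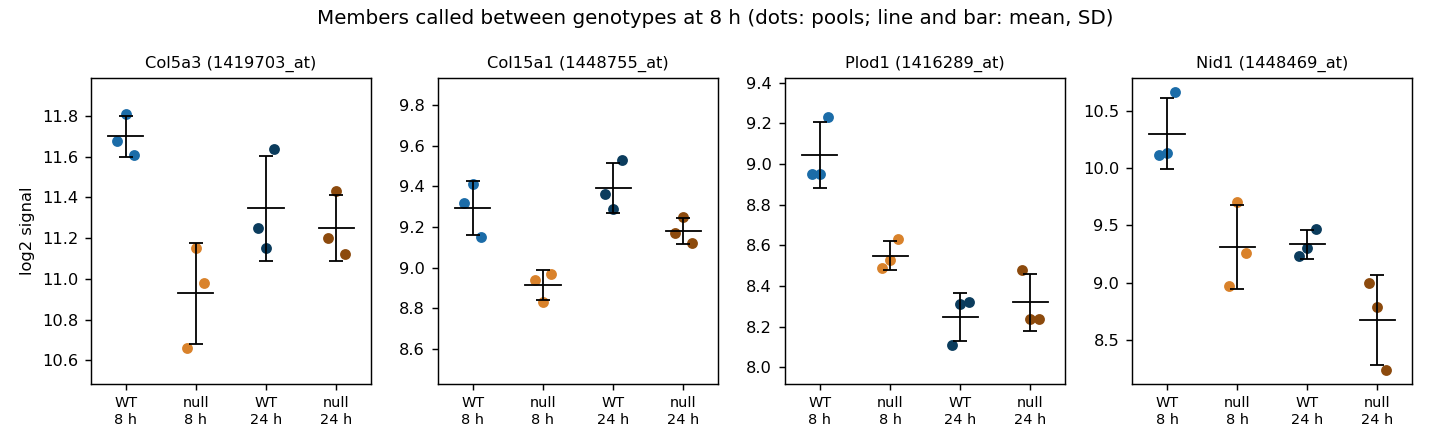
Log2 signal (vertical axes) of the 4 matrix probe sets called between genotypes at 8 h, in wild type (WT) and null pools at 8 h and 24 h. Dots are single pools, lines the mean and bars the SD of 3 pools. In each panel the 3 wild type pools at 8 h sit above the 3 null pools at 8 h, for Nid1 from 10.11 upwards against 9.70 and below.

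Of the collagen-modifying enzymes, Plod1, which hydroxylates lysines in the helical part of collagen, was called in both genotype and time. Plod1 signals at 8 h were 8.95, 8.95 and 9.23 in wild type and 8.49, 8.53 and 8.63 in null pools. At 24 h they were 8.11, 8.31 and 8.32 in wild type and 8.48, 8.24 and 8.24 in null pools. The wild type pools at 8 h stood above all other 9 arrays, and the genotypes overlapped at 24 h. The genotype difference at 8 h was 1.40-fold (log2 0.49, SE 0.10, adjusted p = 0.026), and in wild type glands Plod1 fell 1.74-fold between 8 h and 24 h (log2 -0.80, SE 0.10, adjusted p = 0.0032). In null glands the change was -0.23 (adjusted p = 0.22), and the change of the genotype difference was -0.56 (unadjusted p = 0.0025, adjusted p = 0.29). Leaving out any 1 of the 6 pools at 8 h ended the genotype call (adjusted p 0.056 to 0.10), whereas the fall in wild type was called in all 12 leave-one-out fits. The other Plod1 probe set lay 0.43 higher in wild type at 8 h, without overlap (adjusted p = 0.18), and -0.13 and 0.12 between the times.

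Plod2, the lysyl hydroxylase of the collagen ends that leads to stable cross-links, showed the largest change with time among the matrix genes in both genotypes. By its representing probe set the signals at 8 h were 9.90, 9.43 and 9.85 in wild type and 8.75, 9.01 and 9.38 in null pools. At 24 h they were 7.55, 7.15 and 7.51 in wild type and 8.08, 6.76 and 7.20 in null pools. All 6 arrays at 8 h lay above all 6 at 24 h. Plod2 fell 5.01-fold in wild type (log2 -2.32, SE 0.29, adjusted p = 0.0022) and 3.25-fold in null glands (log2 -1.70, adjusted p = 0.010). At 8 h the wild type pools lay above the null pools without overlap, but the difference of 0.68 was not called (adjusted p = 0.27).

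A second Plod2 probe set gave 9.05, 8.47 and 9.08 in wild type and 8.44, 8.47 and 8.75 in null pools at 8 h, against 7.01, 6.69 and 6.59 and 7.13, 6.36 and 6.67 at 24 h. Here too the times did not overlap in either genotype, while the genotypes did at both times. The falls were 4.31-fold in wild type (log2 -2.11, SE 0.21, adjusted p = 0.00070) and 3.57-fold in null glands (log2 -1.83, adjusted p = 0.0014). Both were called in all 12 leave-one-out fits. For the first probe set the fall in null glands missed the threshold with 8 h null pool 3 left out (adjusted p = 0.054) and when only the null arrays were fitted (adjusted p = 0.056). The fall did not pass the test of a difference between genotypes (change of the genotype difference -0.62, unadjusted p = 0.15).

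The remaining enzymes of collagen maturation were not called in any comparison in the main fit. Plod3, another lysyl hydroxylase, and P4ha1 and P4ha2, catalytic subunits of prolyl hydroxylase, differed between genotypes by -0.09 to 0.03 at both times. P4ha2 lay 0.40 lower at 24 h in wild type and 0.30 lower in null glands (adjusted p = 0.16 and 0.30). Lox, Loxl1 and Loxl3, oxidases that start cross-linking, differed by -0.32, 0.19 and 0.04 between genotypes at 8 h and changed by no more than 0.22 with time. P4ha3 had mean signals of 4.40 and 4.87 in wild type and null glands at 8 h and 4.39 and 4.74 at 24 h, all below the array medians.

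Among laminins and nidogen, Nid1 was called at 8 h through the second of its 3 tested probe sets. That probe set gave 10.11, 10.13 and 10.66 in wild type and 8.97, 9.70 and 9.26 in null pools at 8 h, and 9.23, 9.30 and 9.47 against 9.0, 8.79 and 8.24 at 24 h. Wild type lay above null without overlap at both times. The difference was 1.99-fold at 8 h (log2 0.99, SE 0.22, adjusted p = 0.036) and 0.65 at 24 h, not called (adjusted p = 0.22). With time this probe set fell 1.96-fold in wild type (log2 -0.97, adjusted p = 0.031), and the change in null glands was -0.63 (adjusted p = 0.13). The genotype call was lost without any 1 of the 3 wild type 8 h pools, 8 h null pools 1 and 3 or 24 h null pool 2 (adjusted p 0.053 to 0.11), and the fall in wild type without any 1 of the 6 wild type pools (0.059 to 0.088).

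By its representing probe set, Nid1 signals at 8 h were 12.35, 12.49 and 12.83 in wild type and 11.92, 12.21 and 12.34 in null pools. The lowest wild type pool lay just above the highest null pool, and the difference of 0.40 was not called (adjusted p = 0.19). With the replicate number as a block over only the 8 h arrays it was called (adjusted p = 0.033). At 24 h the pools were at 11.84, 12.01 and 12.21 and at 11.90, 11.81 and 11.67, so that the change with time was -0.54 in wild type (adjusted p = 0.052) and -0.36 in null glands (adjusted p = 0.17). The wild type change was called with centring (adjusted p = 0.044), with the block over 12 arrays (0.029) or only the wild type arrays (0.027), and without 8 h null pool 1 (0.040). Array weights called the null change (-0.43, adjusted p = 0.013). The Nid1 probe set of lowest signal differed by -0.04 at 8 h (adjusted p = 0.96), so the probe sets of Nid1 do not give 1 answer.

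Laminin genes were not called in the main fit. Lamb3, a chain of the epithelial laminin that anchors the basal cells, gave 6.73, 6.44 and 6.97 in wild type and 6.41, 6.09 and 6.04 in null pools at 24 h. Wild type pools all lay above null pools, by 0.54 (unadjusted p = 0.0051, adjusted p = 0.15), and by 0.67 without 24 h wild type pool 2, which was called (adjusted p = 0.046). Luminal epithelial markers (9 of 10 tested) had means of 9.38 to 9.87 in wild type and 8.94 to 9.18 in null pools at 24 h, and basal ones (9 of 9) 8.64 to 9.38 against 8.06 to 8.31, and their part in the Lamb3 values was not tested. Lama5, the common laminin chain of the adult basement membrane, differed by -0.18 at 8 h and -0.08 at 24 h. Lama1 was too low for the filter, with 5.29, 5.47 and 6.19 in wild type and 4.88, 5.11 and 5.11 in null pools at 8 h, and 5.63, 5.44 and 5.66 against 4.72, 4.50 and 4.41 at 24 h. With no filter on low values its difference of 1.03 at 24 h was called (adjusted p = 0.032). Apart from 8 h wild type pool 3, these signals lie below the array medians.

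Genotype at 24 h was compared next. Limma called 0 of the 96 matrix probe sets, against 1.11% of all tested probe sets that were called (0.873% higher and 0.232% lower in wild type). At an unadjusted p below 0.05, 11 of the 96 passed (11.5%), against 13.7% of all. Wild type and null arrays did not overlap for 11 of the 96 (11.5%), against 15.3% of all. The median difference over the 52 genes was -0.00, against 0.01 over all genes. The lowest unadjusted p among the genes was that of Thbs1 (0.0029), followed by Lamb3 and Timp4.

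**Figure D2:**
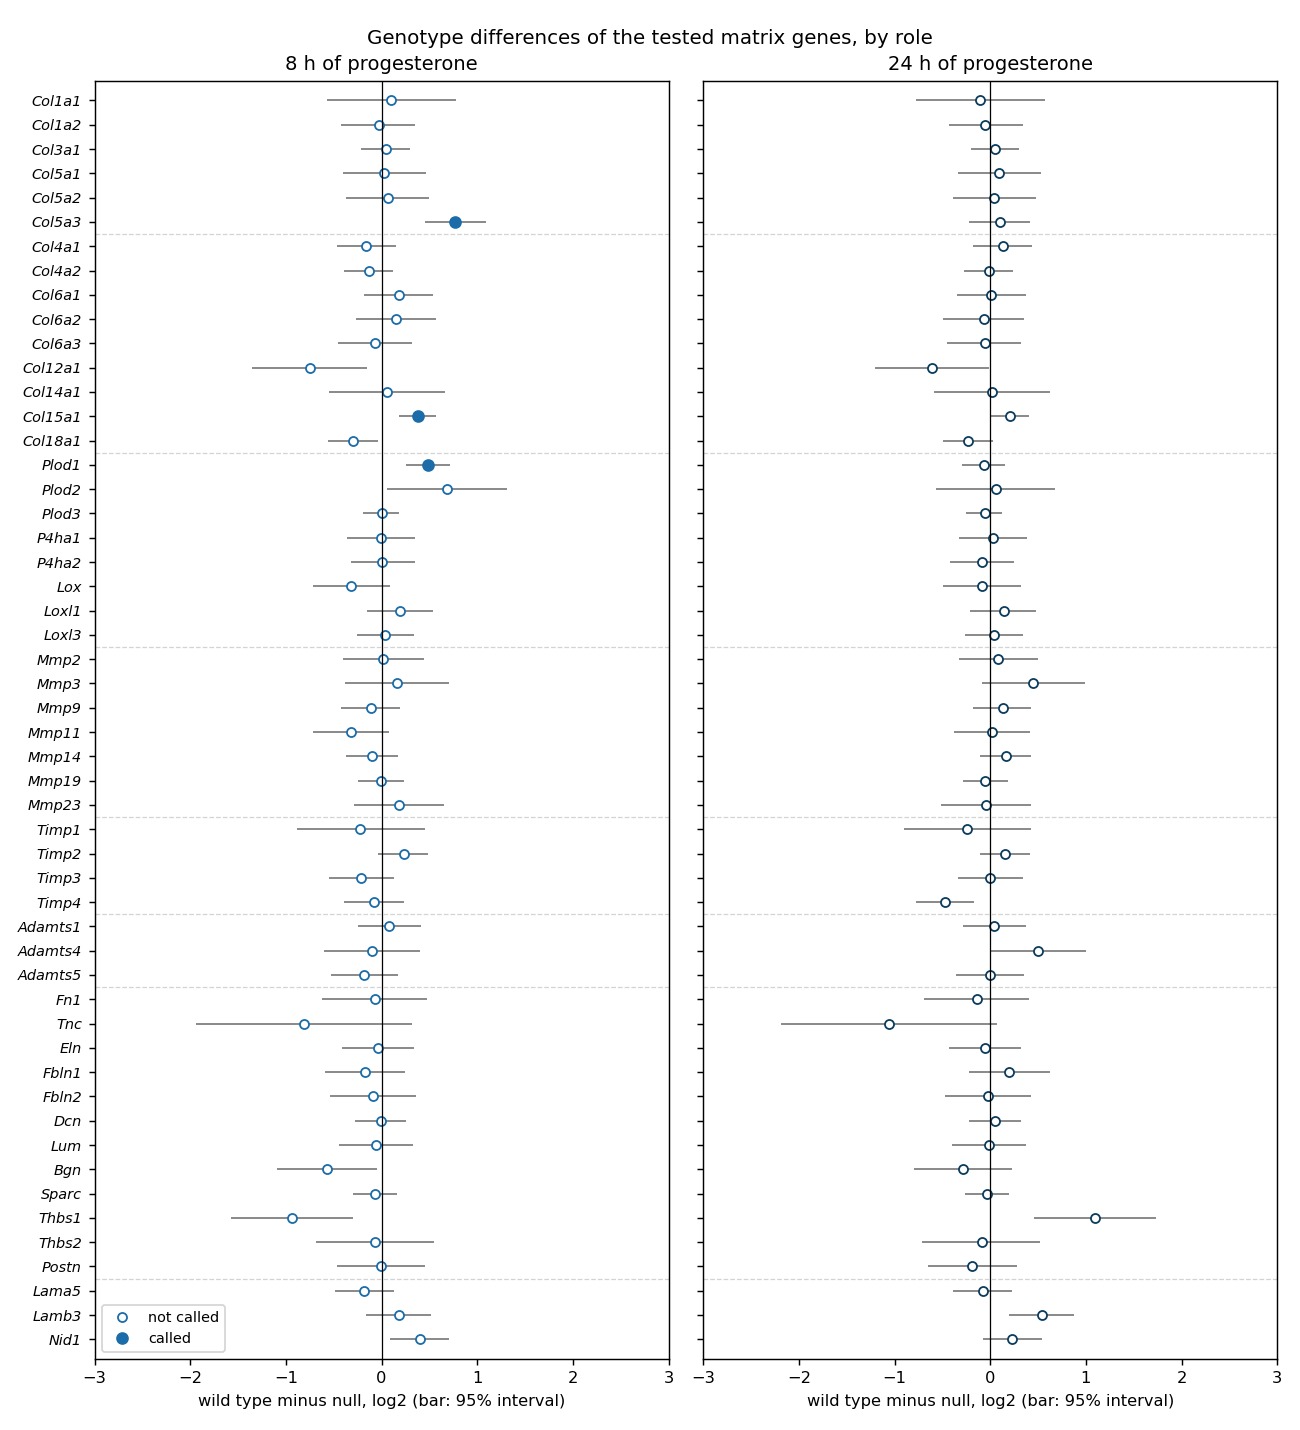
Difference between wild type and null glands (log2, horizontal axes) of the 52 tested matrix genes by their representing probe sets, at 8 h (left) and 24 h (right). Points are differences, filled where called, bars are 95% intervals, and dashed lines part the roles. At 8 h the filled points are Col5a3, Col15a1 and Plod1, and at 24 h none is filled. Thbs1 lies at -0.94 on the left and 1.09 on the right.

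Thbs1, a secreted glycoprotein that binds matrix, cells and latent growth factor, lay on opposite sides at the 2 times. At 8 h its signals were 6.37, 6.14 and 6.99 in wild type and 7.07, 7.63 and 7.61 in null pools, and at 24 h 6.78, 7.86 and 7.81 against 6.49, 6.21 and 6.46. Null pools were thus all higher at 8 h and wild type pools all higher at 24 h. The difference was -0.94 at 8 h (adjusted p = 0.13) and 1.09 at 24 h (adjusted p = 0.11), and neither was called. The change between them was 2.03 (95% interval 1.13 to 2.93, unadjusted p = 0.00039), which limma did not call over all probe sets (adjusted p = 0.13). It was called without 24 h wild type pool 1 (2.38, adjusted p = 0.032) and with weights for array quality (2.34, adjusted p = 0.011). Leaving out 24 h wild type pool 1 also led to calls at 8 h (-0.94, adjusted p = 0.044) and 24 h (1.45, adjusted p = 0.024). The other Thbs1 probe set was too low to be tested, with 4.96, 4.46 and 5.08 in wild type and 5.33, 5.69 and 5.49 in null pools at 8 h and 5.06, 5.51 and 5.42 against 4.54, 4.42 and 4.55 at 24 h, in the same order.

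For the change of the genotype difference between the times, limma called 0 of the 96 matrix probe sets, against 0.143% of all that were called (0.114% positive and 0.0295% negative). At an unadjusted p below 0.05, 3 of the 96 passed (3.12%), against 5.67% of all. By gene those 3 were Thbs1, Plod1 and Col5a3. The median change over the 52 genes was 0.00, against 0.01 over all genes.

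The other glycoproteins and proteoglycans were not called between genotypes in the main fit. With Thbs1 included, 12 of the 12 tested genes of this role lay below 0 at 8 h (100%, against 47.4% of all genes), with a median of -0.07. Weights for array quality called all 3 Bgn probe sets (-0.89, -0.87 and -0.73), Tnc (-1.23) and a Fbln1 probe set (-0.70) lower in wild type at 8 h. Tnc, a glycoprotein of remodelled stroma, varied most, with 7.91, 8.00 and 8.47 in wild type and 8.10, 9.73 and 8.98 in null pools at 8 h, and 7.85, 8.04 and 7.89 against 10.39, 8.45 and 8.11 at 24 h. Null pools all lay above wild type pools at 24 h, 1 of them by more than 2 log2 units, and the differences of -0.81 and -1.06 were within the spread (adjusted p = 0.51 and 0.40). Bgn, a small proteoglycan that binds collagen fibrils, lay 0.57 lower in wild type at 8 h (SE 0.24, adjusted p = 0.27), and its other 2 probe sets by 0.57 and 0.49. Dcn and Lum, related proteoglycans encoded side by side on chromosome 10, differed by -0.01 and -0.06 at 8 h and 0.05 and -0.01 at 24 h. Fn1 (fibronectin), Sparc, Thbs2 and Postn, which bind collagen or cells, differed by -0.19 to -0.01 at both times.

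No protease or inhibitor was called between genotypes in the main fit. Weights for array quality called all 4 Timp3 probe sets lower in wild type at 8 h (-0.82 to -0.36, adjusted p 0.0053 to 0.043). They also called a Timp4 probe set lower (-0.53, adjusted p = 0.034) and one of Timp2 higher (0.34, adjusted p = 0.021). At 24 h they called Mmp19 (-0.41, adjusted p = 0.049) and both Timp4 probe sets (-0.65 and -0.87) lower in wild type. The 7 tested metalloproteases differed by -0.32 (Mmp11) to 0.18 (Mmp23) at 8 h. Mmp3, stromelysin, gave 8.93, 9.29 and 9.97 in wild type and 8.82, 9.40 and 9.48 in null pools at 8 h and 9.72, 10.00 and 10.24 against 9.59, 9.68 and 9.34 at 24 h. Wild type pools all lay above null pools at 24 h only, by 0.45 (adjusted p = 0.46). Mmp3 lies on chromosome 9 with Pgr itself, 13 protein-coding genes away, in a cluster of 10 metalloprotease genes. Of that cluster only Mmp12 was tested besides Mmp3, and it differed by 0.47 at 8 h and -1.03 at 24 h (adjusted p = 0.79 and 0.52). Col5a3 lies on the same chromosome, with 98 protein-coding genes between it and Mmp3.

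Timp4, an inhibitor known from heart and fat, gave 10.15, 10.64 and 10.62 in wild type and 10.75, 11.16 and 10.91 in null pools at 24 h. Null pools all lay above wild type pools, by 0.47 (unadjusted p = 0.0059, adjusted p = 0.16), and its second probe set by 0.64 (adjusted p = 0.18). With the replicate number as a block over all 12 arrays the first was called (adjusted p = 0.037). Adamts4, an aggrecan-cutting protease, lay 0.50 higher in wild type at 24 h (adjusted p = 0.36), a difference called without 24 h null pool 1 (0.81, adjusted p = 0.035). Adamts1 and Adamts5 differed by -0.18 to 0.08 at both times.

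Markers of the cell types that could carry these differences were looked at beside them. Of 9 fibroblast markers 8 were tested, and their mean signal was 10.93 to 11.16 in wild type and 10.68 to 11.05 in null pools at 8 h. One fibroblast marker, the matrix protein gene Dpt, was called at 8 h, 1.60-fold higher in wild type (adjusted p = 0.0032). Skeletal muscle markers (10 of 10 tested) had means of 10.60 to 11.95 in wild type and 6.42 to 10.87 in null pools, with 0 called by limma and 2 at an unadjusted p below 0.05. Brown adipocyte markers (7 of 7) had means of 8.93 to 9.71 in wild type and 9.89 to 10.63 in null pools, which do not overlap, and Ucp1 and Cidea were called lower in wild type. The means of 4 other lists also did not overlap at 8 h. White adipocyte markers (6 of 8 tested) were at 13.03 to 13.10 in wild type and 12.92 to 13.01 in null pools. Endothelial markers (8 of 8) were at 8.87 to 9.14 against 9.20 to 9.28, pericyte markers (6 of 6) at 9.88 to 9.93 against 9.99 to 10.06, and Schwann cell markers (4 of 6) at 9.25 to 9.28 against 9.31 to 9.47. Limma called none of the markers in these 4 lists, of which 1, 2, 3 and 2 passed at an unadjusted p below 0.05. Among luminal markers, whose means overlapped, 2 keratin genes were called lower in wild type, Krt18 by 1.31-fold and Krt8 by 1.74-fold. Of the 9 luminal markers tested only 3 lay below 0, and the median difference of the 9 was 0.04. No marker is at 0 on a log2 array scale, and the part of these cell types in the differences of Col5a3, Col15a1, Plod1 and Nid1 was not tested.

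The change from 8 h to 24 h was compared within each genotype, and all calls were lower at 24 h. In wild type 8 of the 96 probe sets were called, all 8 lower at 24 h (8.33%), against 5.22% of all tested probe sets called (3.69% lower and 1.53% higher). In null glands 8 of 96 were called, also all 8 lower (8.33%), against 4.40% of all (3.59% lower and 0.814% higher). By representing probe set, 3 of 52 genes were called in wild type (5.77%, against 5.28% of all genes). In null glands it was also 3 of 52 (5.77%, against 4.57%). All of these were lower, against 3.83% of all genes called lower in each genotype. The genes called in both genotypes were Plod2, Timp2, Timp3 and Eln. The null pools of equal number deviated together, and with that number as a block over only the null arrays the null calls of Eln (adjusted p = 0.10), both Timp2 probe sets (0.067 and 0.10), Fbln2 (0.11), the first Plod2 probe set (0.054) and 1 of the 2 Timp3 probe sets (0.054) were lost. With weights for array quality 48 were called in null glands, 42 lower and 6 higher, against 5775 of all 23709 tested probe sets. The 6 were from Timp4 (2 probe sets), Adamts5, Col15a1, Col18a1 and Col5a3. In wild type Thbs1 was called higher with these weights (1.06, adjusted p = 0.031). In the main fit Plod1 and Nid1 were called in wild type only and Fbln2 in null glands only. For none of these 3 did the change of the genotype difference pass the test.

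Over all 52 tested matrix genes the changes lay below 0 more often than above. The median change over the 52 genes was -0.18 in wild type and -0.20 in null glands, against -0.01 and -0.02 over all genes tested. In wild type 33 of 52 genes lay below 0 (63.5%, against 52.0% of all genes), and in null glands 38 of 52 (73.1%, against 55.2%). Arrays at 8 h and 24 h did not overlap for 39 of the 96 probe sets in wild type (40.6%, against 25.9% of all) and for 22 in null glands (22.9%, against 26.0%). When only the null arrays were fitted, 3 of 96 were called in null glands in place of 8, with or without the replicate number as a block.

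Single pools moved these counts. In wild type 3 were called without 8 h pool 1, 4 without 8 h or 24 h pool 2, and 5 without 8 h pool 3 or 24 h pool 1. In null glands 2 were called without 8 h null pool 3, 3 without 24 h null pool 2 or 3, 4 without 8 h null pool 2, and 5 without 8 h wild type pool 1 or 2.

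**Figure D3:**
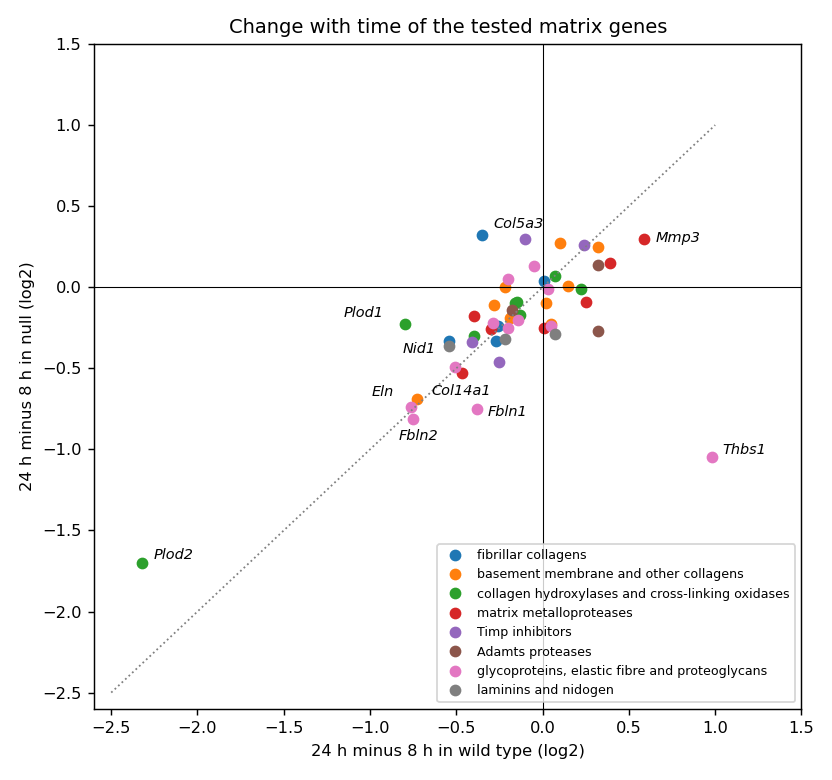
Change from 8 h to 24 h (log2) of the 52 tested matrix genes by their representing probe sets, in wild type (horizontal) against null glands (vertical), coloured by role. The dotted line marks equal change. Plod2 lies far below the rest at -2.32 and -1.70, and Thbs1 alone lies far to the lower right, at 0.98 and -1.05.

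Among the Timp inhibitors, Timp2, which also helps to activate Mmp2, fell in both genotypes by 2 of its 5 tested probe sets. The first of these gave 11.74, 11.63 and 11.45 in wild type and 11.21, 11.27 and 11.41 in null pools at 8 h, and 10.98, 10.84 and 11.10 against 10.91, 10.67 and 10.41 at 24 h. No array at 24 h reached any array at 8 h. This probe set fell 1.55-fold in wild type (log2 -0.64, SE 0.12, adjusted p = 0.016) and 1.55-fold in null glands (log2 -0.63, adjusted p = 0.018). The second fell 1.47-fold (adjusted p = 0.017) and 1.40-fold (adjusted p = 0.033), from 9.83 to 10.12 over the 8 h pools to 9.22 to 9.67 over the 24 h pools. The representing probe set lay 0.41 lower in wild type and 0.34 lower in null glands, also without overlap, and was not called (adjusted p = 0.074 and 0.13).

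These Timp2 calls rested on few pools. In wild type the first was lost without 8 h wild type pool 1 or 2 or 24 h wild type pool 2 (adjusted p 0.052 to 0.082), and the second without 8 h wild type pool 1 (0.083) or 24 h wild type pool 1 (0.051). In null glands the first was lost without 8 h null pool 2 or 3 or 24 h null pool 2 or 3 (0.051 to 0.083), and the second without those 4 or 8 h wild type pool 1 or 2 (0.0505 to 0.13). The block over only the null arrays ended both null calls (adjusted p = 0.067 and 0.10).

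Timp3, an inhibitor that stays bound to the matrix, fell in both genotypes by 1 of its tested probe sets and in null glands by another. By its second probe set the signals were 11.53, 11.46 and 11.73 in wild type and 11.77, 11.90 and 12.10 in null pools at 8 h, and 10.93, 11.21 and 11.24 against 11.16, 11.24 and 11.05 at 24 h. The 8 h pools lay above all 24 h pools in both genotypes. It fell 1.71-fold in null glands (log2 -0.77, SE 0.11, adjusted p = 0.0039), called in all 12 leave-one-out fits, and 1.36-fold in wild type (log2 -0.44, adjusted p = 0.042), called in 3 of 12. In wild type the call was lost without any 1 wild type pool, 8 h null pool 2 or 24 h null pool 1 or 2 (adjusted p 0.051 to 0.12), and it was kept in 5 of 10 other settings.

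Another Timp3 probe set fell 1.77-fold in null glands (adjusted p = 0.019) and lay 0.43 lower at 24 h in wild type (adjusted p = 0.15). Its call needed 8 h null pool 3 (adjusted p = 0.072 without it) and 24 h null pools 2 (0.055) and 3 (0.058). The representing Timp3 probe set lay 0.25 lower in wild type and 0.46 lower in null glands (adjusted p = 0.39 and 0.12). Of the other inhibitors, Timp1 lay 0.24 and 0.26 higher at 24 h in wild type and null glands (adjusted p = 0.69 and 0.67), and Timp4 0.10 lower and 0.30 higher (adjusted p = 0.73 and 0.26).

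**Figure D4:**
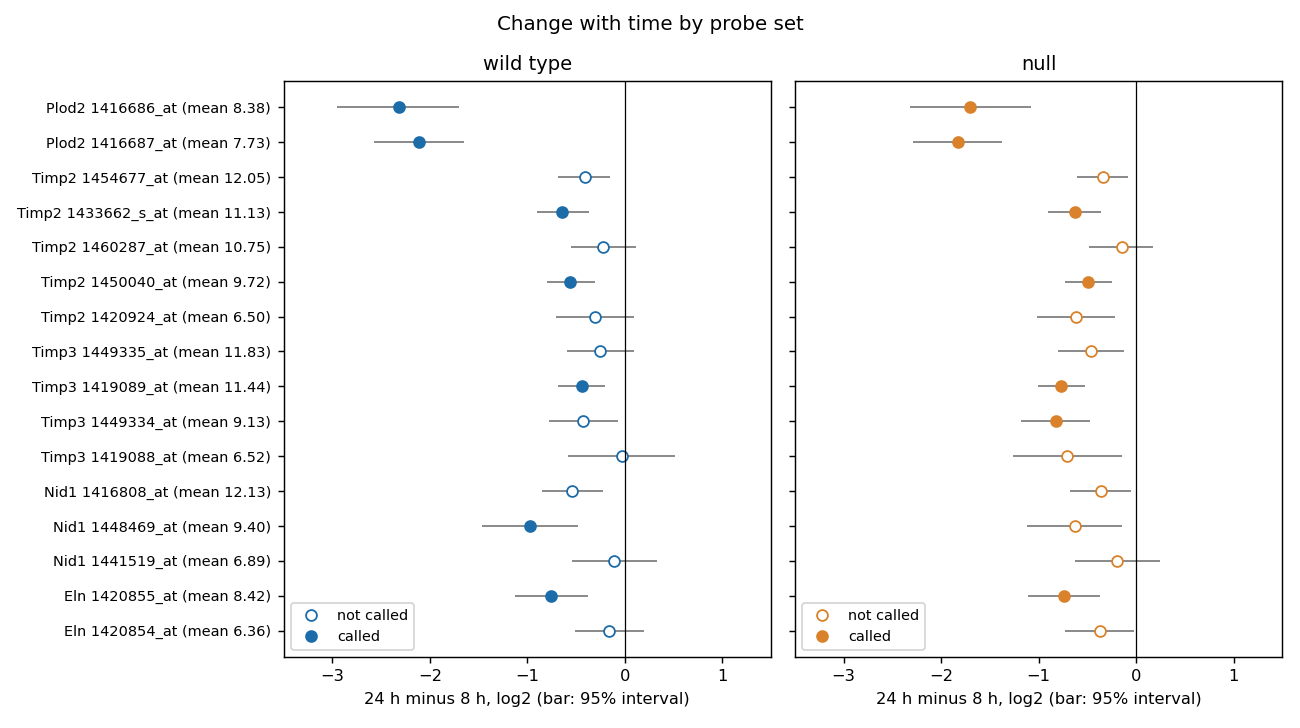
Change from 8 h to 24 h (log2, horizontal axes) by probe set for Plod2, Timp2, Timp3, Nid1 and Eln, in wild type (left) and null glands (right), with the mean signal over 12 arrays behind each name. Bars are 95% intervals and filled points are called. Both Plod2 probe sets are filled on both sides, whereas Timp2, Timp3, Nid1 and Eln have filled and open points, all below 0.

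Of the elastic fibre and glycoprotein genes, Eln, which encodes tropoelastin, fell in both genotypes. Its signals were 8.81, 8.68 and 8.84 in wild type and 8.56, 9.06 and 8.81 in null pools at 8 h, and 7.76, 8.06 and 8.23 against 8.43, 7.87 and 7.92 at 24 h. Each genotype's 8 h pools lay above its 24 h pools. The fall was 1.69-fold in wild type (log2 -0.76, SE 0.17, adjusted p = 0.029) and 1.67-fold in null glands (log2 -0.74, adjusted p = 0.035). In wild type it was lost without any 1 of the 3 8 h wild type pools or 24 h wild type pool 1 or 2 (adjusted p 0.065 to 0.11). In null glands it was lost without null 8 h or 24 h pool 2 or 3 or 8 h wild type pool 1 or 2 (0.052 to 0.14), and with the block over only the null arrays (0.10). The other Eln probe set lay 0.16 and 0.37 lower (adjusted p = 0.63 and 0.21).

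Of the fibulins Fbln2 and Fbln1, which join elastic fibres and basement membranes, Fbln2 was called in null glands in the main fit. Fbln2 signals were 9.47, 9.36 and 9.86 in wild type and 9.19, 9.99 and 9.78 in null pools at 8 h, and 8.70, 8.89 and 8.87 against 9.14, 8.84 and 8.55 at 24 h. Again the times did not overlap in either genotype. Fbln2 fell 1.76-fold in null glands (log2 -0.81, SE 0.21, adjusted p = 0.049) and lay 0.75 lower in wild type, just short of the threshold (adjusted p = 0.059). The wild type change was called with array weights (adjusted p = 0.042) and when only the wild type arrays were fitted (0.044, with the block 0.043). It was also called without 8 h null pool 1 (0.027). The null call was kept in 3 of 12 leave-one-out fits. It was lost without null 8 h or 24 h pool 2 or 3 (adjusted p 0.13 to 0.16), 8 h wild type pool 1 or 2 or any 24 h wild type pool (0.056 to 0.071). Of 11 other settings 5 kept it. Fbln1 lay 0.75 lower at 24 h in null glands (adjusted p = 0.0505) and 0.38 lower in wild type (adjusted p = 0.28).

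**Figure D5:**
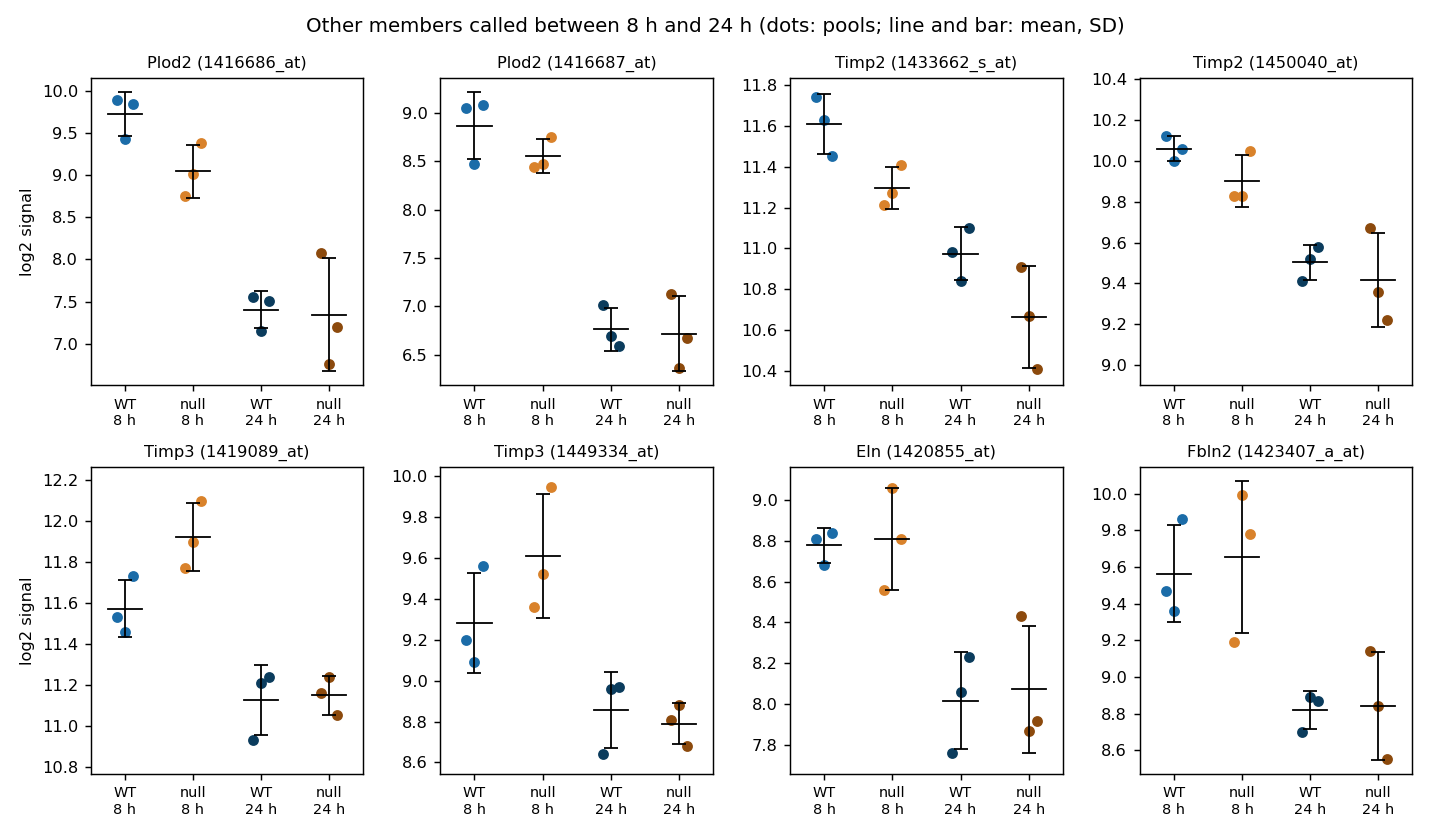
Log2 signal (vertical axes) of the other matrix probe sets called between 8 h and 24 h, for Plod2, Timp2, Timp3, Eln and Fbln2, in wild type (WT) and null pools. Dots are single pools, lines the mean and bars the SD of 3 pools. In each panel the pools of a genotype at 24 h sit below its pools at 8 h, for Plod2 in wild type with means of 9.73 at 8 h and 7.40 at 24 h.

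Collagen genes themselves were not called with time in the main fit. With weights for array quality, probe sets of Col1a1, Col1a2, Col3a1, Col5a1, Col6a3 and Col14a1 were called lower in null glands. The same weights called Col5a3, Col15a1 and Col18a1 higher there. Without 8 h null pool 1 a Col14a1 probe set was called lower in null glands (-1.15, adjusted p = 0.041). The replicate block over only the wild type arrays called Col1a1 lower (-0.54, adjusted p = 0.048). Col1a1 lay 0.54 lower at 24 h in wild type (95% interval -1.21 to 0.14) and 0.33 lower in null glands (-1.0 to 0.35), and Col3a1 0.18 lower in both. Col14a1, a collagen that decorates fibrils, lay 0.73 and 0.69 lower (adjusted p = 0.15 and 0.18). Col4a1 and Col4a2 moved by 0.05 and 0.02 in wild type and -0.23 and -0.10 in null glands, and Col18a1 lay 0.32 and 0.25 higher (adjusted p = 0.15 and 0.26). By role, the median change was -0.26 in wild type and -0.21 in null glands for the 6 fibrillar collagens, and 0.02 and -0.10 for the 9 other collagens. Over the 12 arrays the signals most like Col1a1 were those of Col1a2 and P4ha2 (r = 0.84 each), Col5a1 (0.83) and Col3a1 (0.82), and those most like Col4a1 after Col4a2 were Fn1 and Dcn (0.83 each), as a description over arrays that share their groups and hybridisations.

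Metalloproteases and Adamts proteases were not called with time in the main fit either. With weights for array quality, probe sets of Mmp2, Mmp14, Mmp19 and Adamts4 were called lower in null glands and 1 of Adamts5 higher. Mmp2, gelatinase A of the stroma, lay 0.47 lower at 24 h in wild type and 0.53 lower in null glands (adjusted p = 0.18 and 0.14). Mmp3 and Mmp9 lay 0.59 and 0.39 higher in wild type (adjusted p = 0.20 and 0.13). Mmp19 lay 0.30 and 0.26 lower without overlap (adjusted p = 0.14 and 0.21), and Mmp14, the membrane-bound activator of Mmp2, differed by 0.01 and -0.25. Thbs1 lay 0.98 higher at 24 h in wild type and 1.05 lower in null glands (adjusted p = 0.075 and 0.063). Without 24 h wild type pool 1 both Thbs1 changes were called, at 1.33 and -1.05 (adjusted p = 0.019 and 0.026), and with the replicate block over only the null arrays the second was (adjusted p = 0.043). Thbs2 lay 0.51 and 0.49 lower (adjusted p = 0.32 and 0.36). A Thbs2 probe set was called lower in null glands without 8 h null pool 1 (-1.18, adjusted p = 0.031). Array weights also called Thbs2 probe sets lower there (-0.96 and -0.77, adjusted p = 0.0057 and 0.018).

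Fibroblast markers and a measure of RNA quality moved with time as well. The mean of the 8 tested fibroblast markers was 10.49 to 10.86 in wild type and 10.41 to 10.59 in null pools at 24 h, so that it did not overlap with 8 h in either genotype. Of the 8, Cd34 (2.18-fold), Pi16 (1.95-fold) and Dpt (1.40-fold) fell in wild type and Cd34 (2.00-fold) and Pdgfrb (1.48-fold) in null glands, and their median change was -0.33 in both. In wild type white adipocyte markers were also lower at 24 h without overlap, at 13.03 to 13.10 against 12.83 to 13.02, with 0 called. Luminal markers had 1 of 9 below 0 and 2 called higher, and basal ones 1 of 9 below 0, which was called lower. Of the endothelial markers 1 of 8 was called lower, and of the Schwann cell markers 2 of 4. In null glands the means of 4 lists besides the fibroblast one were lower at 24 h without overlap. Basal epithelial markers were at 8.71 to 9.27 at 8 h and 8.06 to 8.31 at 24 h, where Oxtr fell 3.15-fold (adjusted p = 0.00037). Luminal markers were at 9.39 to 9.60 against 8.94 to 9.18, with 9 of 9 below 0 and Cldn7, Esrp1 and Cdh1 called lower. Endothelial markers were at 9.20 to 9.28 against 8.87 to 9.07, with Tie1, Pecam1 and Kdr called lower. Pericyte markers were at 9.99 to 10.06 against 9.72 to 9.90, with 6 of 6 below 0, 0 called by limma and 3 at an unadjusted p below 0.05. The difference between the 3′ and 5′ control probe sets of Actb, which grows as RNA is degraded, was 1.50 to 1.90 (log2) on the 6 arrays at 8 h and 1.15 to 1.33 on the 6 at 24 h. For Gapdh it was 0.33 to 0.77 at 8 h and 0.20 to 0.39 at 24 h, which overlap. Highest for Gapdh were 8 h wild type pools 1 and 2 (0.70 and 0.77), against 0.41 in pool 3 and 0.33 to 0.58 in the 8 h null pools. For Actb those 2 pools had 1.82 and 1.90, pool 3 had 1.50 and the 8 h null pools 1.52 to 1.85. The part of RNA quality in the genotype calls at 8 h was not tested. Nor was the part of RNA quality or these markers in the falls of Plod2, Timp2, Timp3, Eln, Fbln2, Plod1 and Nid1.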

How the data were processed

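Mammary gland RNA of 12 pools was measured on Affymetrix arrays. The authors deposited 1 table of 45101 probe sets, on a log2 scale as judged from its values. MAS5 is named, without a role, in the submitters' processing notes. How the probes were summarized and normalized is not given in the sources used here. Gene names came from the platform annotation and were checked against RefSeq (GRCm38.p6): 34945 had 1 symbol, 932 several and 9160 none, and 0 symbols changed.

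Probe sets with a signal over the array median in 3 or more of 12 arrays were tested with limma 3.58.1 in R 4.3.3 (lmFit, eBayes with a trend) on 4 group means, 8 residual degrees of freedom, with Benjamini-Hochberg adjustment over 23709 probe sets. Intervals are 95%. The calculation was tested on simulated data. Every matrix gene is accounted for and each called one is given in full; of the other matrix genes, the 4 with the largest change among those called in a comparison were named. The genes, lists and tests were chosen with earlier results of these data known.

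Null arrays with the same number at 8 h and 24 h deviated together from their group means (r = 0.52, 0.26 and 0.38), so the numbers were taken to pair them, from the data and not from the labels. In the other comparisons they did not in every pair. The main fit, from which the calls come, held no block for these numbers. P-values measure the spread between pools. Alternatives covered the filter, the variance prior, quantile normalization, centring, a floor, array weights, the arrays fitted, the block, 1 probe set per gene and leaving out each pool. Figures were drawn with matplotlib 3.10.9.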

Additional observations from a re-analysis of the deposited data

How the results depend on the processing

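The 20 calls of matrix probe sets kept their direction in all 12 leave-one-out fits and in up to 11 other settings. The genotype count at 8 h was 2 in place of 4 when only the arrays compared were fitted, 22 (6 higher, 16 lower) with array weights, and 0 to 4 when a pool was left out. At 24 h it was 0, but 1 without a filter, 5 with array weights, 1 with a replicate block over all 12 arrays and 0 to 1 when a pool was left out. For the change of the genotype difference it was 0, with array weights 1, and 0 to 1 when a pool was left out. The time count in wild type was 3 with 1 probe set per gene in place of 8, and 3 to 10 when a pool was left out. In null glands it was 48 (6 higher, 42 lower) with array weights, 3 with only the null arrays, 3 with only these and the replicate block, 3 with 1 probe set per gene, and 2 to 10 when a pool was left out. The array weights ran from 0.47 to 3.20, and the cause of the larger counts was not tested. No rescaling moved the median over all probe sets by more than 0.05.

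Over all tested probe sets, array weights gave 4017 (genotype at 8 h), 685 (24 h), 169 (change of the difference) and 5775 (time in null) calls in place of 729, 262, 34 and 1044. Only the arrays compared gave 71 (24 h), 500 (time in wild type) and 348 (time in null), the replicate block over 12 arrays 482 (24 h) and 1667 (time in null), and the block with only the arrays compared 52, 590 and 566. With 1 probe set per gene, which tests fewer features, 339, 165, 10, 649 and 572 were called in the 5 comparisons, and a stricter filter gave 18 for the change of the difference. Leaving out a pool gave 320 to 889 for genotype at 8 h, 126 to 704 at 24 h, 12 to 45 for the change of the difference, 239 to 1328 for time in wild type, 232 to 1202 for time in null.

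The replicate block over 12 arrays called 10 matrix probe sets for time in wild type and 9 in null glands, and 3 for genotype at 8 h, where Col15a1 missed (adjusted p = 0.056). For time in null glands the numbers were taken to pair the arrays, which the labels do not state. There the block with only the null arrays kept the second Plod2 probe set (adjusted p = 0.017) and Timp3 (0.033). It added Thbs1 (-1.05, adjusted p = 0.043). With 3 pools a group and no second platform, the number of arrays limits the precision.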

Other observations

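Of 78 tested matrix genes outside the list, 5 were called between genotypes at 8 h (6.41%, 2.56% higher and 3.85% lower in wild type), against 3.01% of all tested genes (1.59% higher and 1.42% lower). Fbln7, a fibulin-related glycoprotein (2.02-fold, adjusted p = 0.016), and Col9a1, a collagen known from cartilage (3.14-fold, adjusted p = 0.0043), were higher in wild type. Has2, a hyaluronan synthase (2.10-fold, adjusted p = 0.019), Npnt, an integrin ligand of basement membranes (2.06-fold, adjusted p = 0.017), and Ltbp2, a microfibril protein (1.30-fold, adjusted p = 0.012), were lower. At 24 h limma called 0 of the 78, against 1.30% of all genes, with 12 at an unadjusted p below 0.05 (15.4%, against 13.8%). For the change of the genotype difference it called 0, against 0.133%, with 9 at an unadjusted p below 0.05 (11.5%, against 6.21%).

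Between 8 h and 24 h in wild type, Ltbp2 rose 1.42-fold (adjusted p = 0.0039), and Col9a1 (2.57-fold, adjusted p = 0.014) and the collagen chaperone gene Serpinh1 (1.39-fold, adjusted p = 0.025) fell, so that 3 of the 78 were called (3.85%, against 5.28% of all genes). In null glands Colgalt1, which adds sugar to collagen hydroxylysines, rose 1.20-fold (adjusted p = 0.043) and 5 of the 78 fell, Ccn1 (2.19-fold, adjusted p = 0.041), Has2 (1.99-fold, adjusted p = 0.027), Ccn5 (1.87-fold, adjusted p = 0.035), the basement membrane proteoglycan gene Hspg2 (1.35-fold, adjusted p = 0.030) and Ltbp3 (1.23-fold, adjusted p = 0.049). These are 7.69% called and 6.41% lower, against 4.57% and 3.83% of all genes. Ltbp2 at 8 h, Colgalt1 and Ltbp3 lie outside the naming rule and were named after their values were seen. The median change of the 78 genes was -0.05 in wild type and -0.17 in null glands.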
